A study of Mus musculus with 4 samples.

Results

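The stanniocalcins are the secreted glycoprotein hormones encoded by Stc1 and Stc2, and both genes were found by symbol among the 49585 genes counted. The pair was chosen by the log2 fold changes of its members in these counts, which had opposite signs, so their own values are given as a description with no test. Messenger RNA was sequenced with its strand kept, from C2C12, a mouse myoblast line of strain C3H that fuses into myotubes when serum is lowered. In 2 libraries the cells carried a retrovirus that overexpresses C/EBPβ, a leucine zipper transcription factor, and in 2 they carried the empty vector pLXSN. All 4 libraries came from drug-selected pools (7 days of G418 at 1200 µg/ml) that were left to proliferate for 2 days and then kept in 2% horse serum for 2 days of differentiation, so the empty-vector cells share the virus, the drug and the medium. Nothing in the labels tells whether replicate libraries were grown apart, and p-values thus cover the spread among these 4 libraries only, which may be technical. Cebpb itself had 502 and 442 CPM (fragments per 1000000 of the TMM-scaled library size) in the C/EBPβ libraries and 42.7 and 41.3 CPM in the empty-vector libraries, an 11.2-fold rise (log2 fold change 3.49, SE 0.11).

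Stanniocalcin was discovered in bony fish, where it lowers the uptake of calcium by the gill. In mammals STC1 and STC2 act mainly on nearby cells: STC1 has been tied to phosphate transport and to uncoupling proteins of mitochondria, and STC2 to store-operated calcium entry and to the unfolded protein response. Both proteins inhibit the pappalysin PAPP-A, a protease that frees insulin-like growth factors by cutting their binding proteins, and mice that overexpress either hormone grow poorly. Hypoxia is known to induce both genes in human cancer cells.

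The paralogs had the same layout, as the exon map shows. In the count files Stc1 (ENSMUSG00000014813.8) lay on the plus strand of chromosome 14 from 69029289 to 69041401, and Stc2 (ENSMUSG00000020303.2) on the minus strand of chromosome 11 from 31357307 to 31370074, both in GRCm38. In GENCODE M21, a later release of the same build, the coding transcript of each gene had 4 exons, and exon 2 (143 bases) and exon 3 (212 bases) had the same length in both genes. Stc1 encoded 247 amino acids and Stc2 296, and most of either transcript was 3′ UTR (3301 bases in Stc1 and 2837 in Stc2). Stc2 had 4 further noncoding transcripts in that release, and the count files merge 14 exon entries into its 1 count, against 4 for Stc1.

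**Figure D1:**
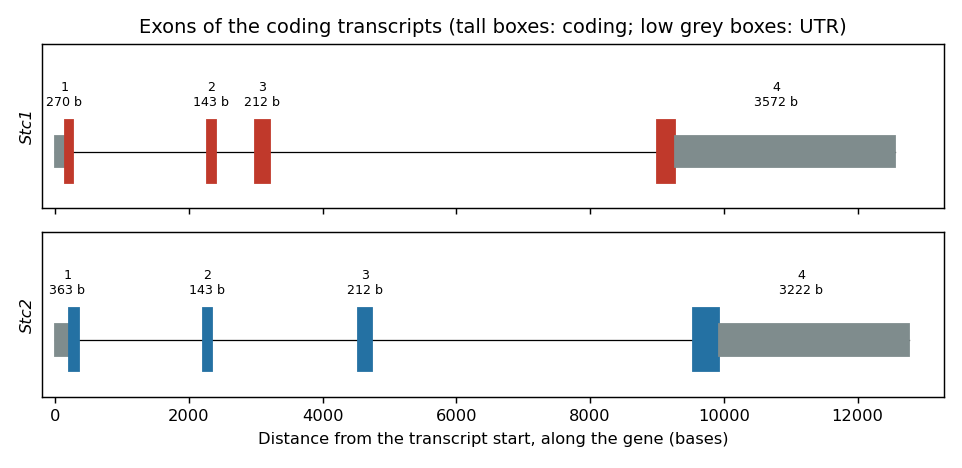
Exons of the coding transcripts of Stc1 (top) and Stc2 (bottom) in GENCODE M21, drawn to scale by distance from the transcript start in bases, with tall boxes for coding parts and low grey boxes for UTRs. Exons 2 and 3 have 143 and 212 bases in both genes, and exon 4 holds the long 3′ UTR.

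The sequences show how far apart the 2 messages are, which bears on whether fragments of one could be counted as the other. The aligned coding sequences were identical at 435 of 727 aligned bases (59.8%). The longest identical run in that alignment had 8 bases, marked by capitals in the following stretches of coding sequence, and it spanned the junction of exons 2 and 3 in both genes.
Stc1, coding bases 219 to 306: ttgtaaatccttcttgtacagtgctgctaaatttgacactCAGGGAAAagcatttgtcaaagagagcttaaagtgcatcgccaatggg
Stc2, coding bases 252 to 339: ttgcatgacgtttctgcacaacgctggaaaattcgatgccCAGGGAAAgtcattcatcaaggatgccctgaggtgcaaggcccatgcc
Over whole transcripts the longest run that the genes shared anywhere was 12 bases, and they had no 50-base window in common. Of the 5299 windows of Stc2 none matched another gene, while 180 of 4148 windows of Stc1 (4.34%) matched Gm41192, which overlaps the start of Stc1 on the opposite strand in GENCODE M21. Per the file headers, fragments were counted by strand.

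Stc1 was close to silent in empty-vector cells and abundant in cells that overexpressed C/EBPβ. It had 17898 and 11164 fragments in the C/EBPβ libraries, against 17 and 24 in the empty-vector libraries. Relative to library size this was 342.6 and 305.3 CPM with C/EBPβ, and 0.381 and 0.475 CPM with the empty vector. The groups did not overlap, as in 38.4% of all genes tested in this direction, and the lower C/EBPβ library stood 643 times as high as the higher empty-vector library, while libraries of a group differed by 1.12-fold and 1.24-fold. The mean was 324 ± 26.4 CPM with C/EBPβ and 0.428 ± 0.0659 CPM with the empty vector (SD, n = 2 each). The log2 fold change, from a fit over all genes, was 9.55, or 748-fold. The empty-vector level rests on 17 and 24 fragments. The exact 95% Poisson intervals ran from 0.222 to 0.611 CPM and from 0.304 to 0.706 CPM and cover counting error only.

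Stc2 went the other way from a modest level. It had 167 and 182 fragments in the C/EBPβ libraries, against 822 and 1059 in the empty-vector libraries. That was 3.20 and 4.98 CPM with C/EBPβ, and 18.4 and 20.9 CPM with the empty vector. The groups did not overlap, as in 36.7% of all genes tested in that direction, and the lower empty-vector library was 3.71 times the higher C/EBPβ library. The means were 4.09 ± 1.26 CPM with C/EBPβ and 19.7 ± 1.77 CPM with the empty vector (SD, n = 2 each), a log2 fold change of -2.29, or 4.88-fold lower. The C/EBPβ libraries differed from each other more than the empty-vector libraries did, with replicate 2 at 1.56 times replicate 1 against 1.14 times. In these bulk samples fewer cells that express a gene and less RNA per cell cannot be told apart.

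**Figure D2:**
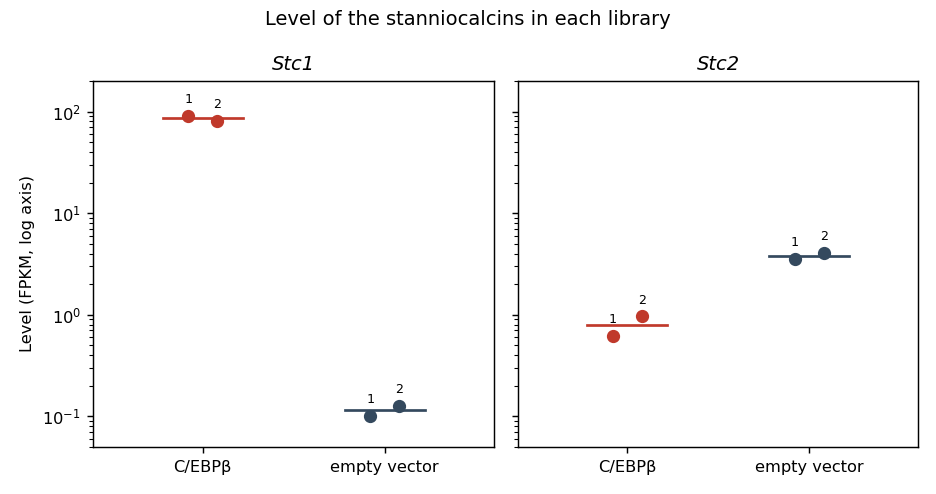
Level of Stc1 (left) and Stc2 (right) in each library, per length (FPKM, the CPM per kb of exon) on a log axis. Points are libraries numbered by replicate and lines are group means. Stc1 stands at 91.5 and 81.6 FPKM with C/EBPβ and near 0.1 FPKM with the empty vector, and Stc2 lies below 1 FPKM with C/EBPβ and between 3.56 and 4.05 FPKM with the empty vector.

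Per length, the message that dominated the pair changed places. In C/EBPβ cells Stc1 reached 91.5 and 81.6 FPKM, against 0.618 and 0.962 FPKM for Stc2, which gave Stc1 99.3% and 98.8% of the summed level. In empty-vector cells Stc1 had 0.102 and 0.127 FPKM and Stc2 3.56 and 4.05 FPKM, and Stc1 held 2.78% and 3.04% of the sum. The summed level of the pair was 92.2 and 82.5 FPKM with C/EBPβ, and 3.67 and 4.17 FPKM with the empty vector. The length of the coding transcript in GENCODE M21 was also used in place of all exons in the count files. It is 4197 against 3743 bases for Stc1 and 3940 against 5175 for Stc2. The bases that the later release adds to Stc1 lie outside the counted exons, which lowers Stc1 with that length. Stc1 was then 101 and 57.6 times Stc2 in C/EBPβ cells, against 148 and 84.8 times with all exons. The length of the coding transcript was chosen after seeing the data. In empty-vector cells Stc2 was then 51.5 and 47.0 times Stc1, against 35.0 and 31.9 times.

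Among all 15886 genes tested, Stc1 stood near the top of the levels per length in C/EBPβ cells, above 96.8% and 96.3% of genes, and near the bottom in empty-vector cells, above 6.47% and 8.22%. It ranked 503rd and 593rd in the C/EBPβ libraries, against 14858th and 14580th in the empty-vector libraries. Stc2 ranked 12456th and 11606th with C/EBPβ, against 8619th and 8204th with the empty vector. By log2 fold change over all genes tested, Stc1 was the 10th highest and Stc2 the 307th lowest. Among the 2402 genes that averaged 100 CPM or more over both groups Stc1 ranked 2. It entered that set through the C/EBPβ libraries alone, with a mean of 0.428 CPM in the empty-vector libraries, so a high rank there was partly built in. Among the 15629 genes with at least 10 empty-vector fragments Stc1 ranked 1. Both stanniocalcins lay above the filter on low counts in all 4 libraries, so neither entered the test through its high group alone.

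**Figure D3:**
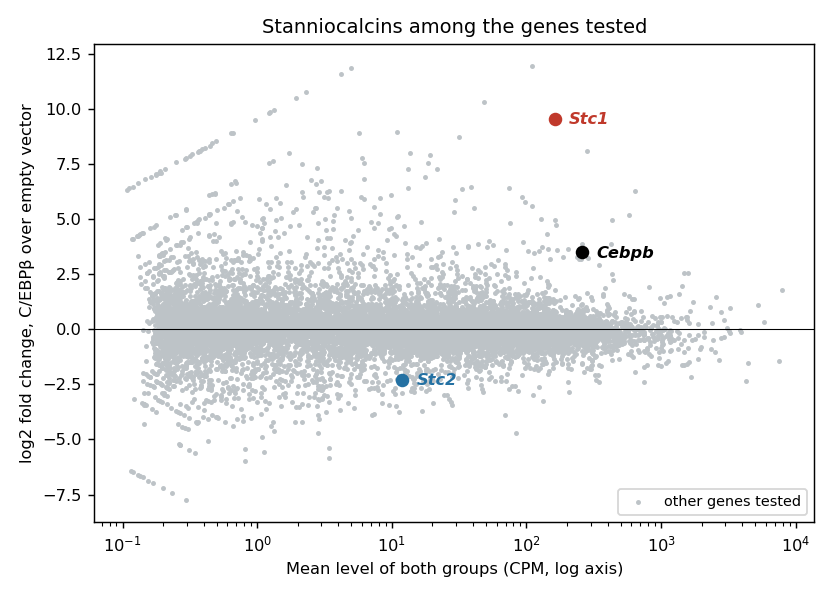
Log2 fold change of C/EBPβ over empty vector against the mean level of both groups (CPM, log axis) for the genes tested, one point per gene. Stc1 lies at 9.55, far above Cebpb at 3.49, at a mean level set by its C/EBPβ libraries, and Stc2 lies at -2.29.

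The libraries held 50493417 and 36461091 fragments assigned to genes in the C/EBPβ group, and 45448661 and 51537847 in the empty-vector group. Of the genes tested, 43.2% passed an adjusted p of 0.05 in edgeR's quasi-likelihood test, 22.3% as higher and 20.9% as lower in C/EBPβ cells, and the median log2 fold change was 0.01. Without empty-vector replicate 2 the number of genes past the threshold was 4005, against 6864 with all libraries.

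Muscle markers were present in both groups, as the label of a muscle line has it, and they moved beside Stc2. All 6 muscle markers fell (Myod1, Myog, Des, Myh3, Ckm and Mymk), or 100% against 20.9% of all genes. Their summed level was 3505 and 5387 CPM in the C/EBPβ libraries and 13198 and 14319 CPM in the empty-vector libraries. Within the C/EBPβ group this sum was higher in replicate 2, as Stc2 was. That order sets 1 library against 1, and a link between the sum and Stc2 was not tested. Markers of other cells moved in both directions. Of 9 markers of fibro-adipogenic progenitors, which are stromal cells between muscle fibres, 5 rose and 2 fell, or 55.6% and 22.2% against 22.3% and 20.9% of all genes, and their sum was 12920 and 12721 CPM with C/EBPβ and 4546 and 3638 CPM with the empty vector. Col3a1, a fibrillar collagen, made up most of that sum (mean 12168 CPM with C/EBPβ and 3554 CPM with the empty vector). Dcn, a proteoglycan, did not pass (log2 fold change 0.34, edgeR adjusted p = 0.128). It did with the replicate number as a block (0.0103) and without the low-count filter (0.00492). Without that filter small adjusted p-values shrank much further, as for Cebpb (6.42e-211 against 9.03e-07 in edgeR). The log2 fold change of Dcn ran from 0.15 to 0.51 without single libraries. Of 8 macrophage markers 6 were tested, and 3 rose and 1 fell, or 50% and 16.7% against 22.3% and 20.9% of all genes. Among those that rose was Lyz2, with means of 27.3 CPM with C/EBPβ and 0.107 CPM with the empty vector. Lyz2 passed the filter on low counts through the C/EBPβ libraries alone and has a close copy in Lyz1. Cd14, a lipopolysaccharide receptor, also rose (log2 fold change 1.17), and the 1 that fell was Itgam. The sum of the macrophage markers tested was 44.7 and 41.4 CPM with C/EBPβ and 9.09 and 8.23 CPM with the empty vector, yet the defining markers Adgre1 and Ptprc had 0 and 2 fragments in all libraries together. Of 9 endothelial markers 3 were tested, and their sum stayed below 3 CPM in every library, with 1.65 and 2.08 CPM for C/EBPβ and 2.60 and 2.81 CPM for the empty vector. Vwf, the clotting factor, had a log2 fold change of 0.21 and did not pass, while Cldn5, a tight junction protein, fell (-2.32), as did Tek. Thus 0 of the 3 rose and 2 fell, or 0% and 66.7% against 22.3% and 20.9% of all genes. Of 8 adipocyte markers only Fabp4 and Plin1 had enough fragments to be tested, and both were higher with C/EBPβ. They passed the filter on low counts through the C/EBPβ libraries alone, with 2 and 1 fragments of Fabp4 and none of Plin1 in the empty-vector libraries, so no other direction could be called. Their sum was 3.33 and 2.24 CPM with C/EBPβ and 0.0449 and 0.0198 CPM with the empty vector, and Lep had no fragment. The part of these other cell types in the levels of the stanniocalcins was not tested.

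The proteases that stanniocalcins inhibit did not move together. Pappa, which encodes PAPP-A, stood at 1.61 and 1.18 CPM in C/EBPβ cells and at 1.26 and 1.602 CPM in empty-vector cells. These groups overlapped, with -0.03 on the log2 scale (SE 0.26, adjusted p = 0.949 in edgeR's quasi-likelihood test), and the sign turned with library sizes alone (0.03), without C/EBPβ replicate 2 (0.15) and without empty-vector replicate 2 (0.16). Pappa2, a related protease that also cuts IGF binding proteins, rose to 15.5 and 11.02 CPM, against 5.18 and 5.73 CPM (log2 fold change 1.28, SE 0.18, edgeR adjusted p = 0.00114). Prg2, whose product is another inhibitor of PAPP-A, had no fragment in any library, where 3 fragments would be 0.0820 CPM in the shallowest.

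Among the binding proteins that PAPP-A cuts, Igfbp4 rose and the others fell. Igfbp4 had 364 and 269 CPM in C/EBPβ cells, against 11.1 and 9.45 CPM in empty-vector cells, which came to 4.95 on the log2 scale (SE 0.18, edgeR adjusted p = 9.78e-06). Igfbp5, the most abundant of them per length, had 1229 and 1485 CPM with C/EBPβ and 2697 and 2349 CPM with the empty vector, a log2 fold change of -0.89 (SE 0.15). Igfbp2 had a log2 fold change of -0.74 (SE 0.09). None of the 3 overlapped between groups, as in 38.4% of all genes for a higher and 36.7% for a lower level. Per length, Igfbp5 stood at 226 ± 30.2 FPKM, Igfbp2 at 82.9 ± 3.37 and Igfbp4 at 71.6 ± 15.1 FPKM in C/EBPβ cells, against 420 ± 41.0, 138 ± 9.65 and 2.33 ± 0.261 FPKM in empty-vector cells (SD, n = 2 each).

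Of the ligands, Igf1 rose to 87.0 and 68.7 CPM, against 14.9 and 10.4 CPM (log2 fold change 2.62, SE 0.21, edgeR adjusted p = 0.000537). Igf2 had 386 and 298 CPM with C/EBPβ and 269.7 and 349 CPM with the empty vector, and these values overlapped (log2 fold change 0.14, edgeR adjusted p = 0.528). Without C/EBPβ replicate 2 the log2 fold change of Igf2 was 0.30, while its sign turned without C/EBPβ replicate 1 (-0.05) and without empty-vector replicate 1 (-0.03). Igf1r, the signalling receptor, did not pass (log2 fold change -0.10, edgeR adjusted p = 0.356), and Igf2r, the receptor that clears IGF2, fell by 0.34 on the log2 scale, a call that ended without empty-vector replicate 1 (edgeR adjusted p = 0.25) and with library sizes alone (0.0675). In all, 3 of the 9 pappalysin and IGF genes tested rose and 3 fell, or 33.3% each against 22.3% and 20.9% of all genes, and the list's median log2 fold change was -0.03.

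**Figure D4:**
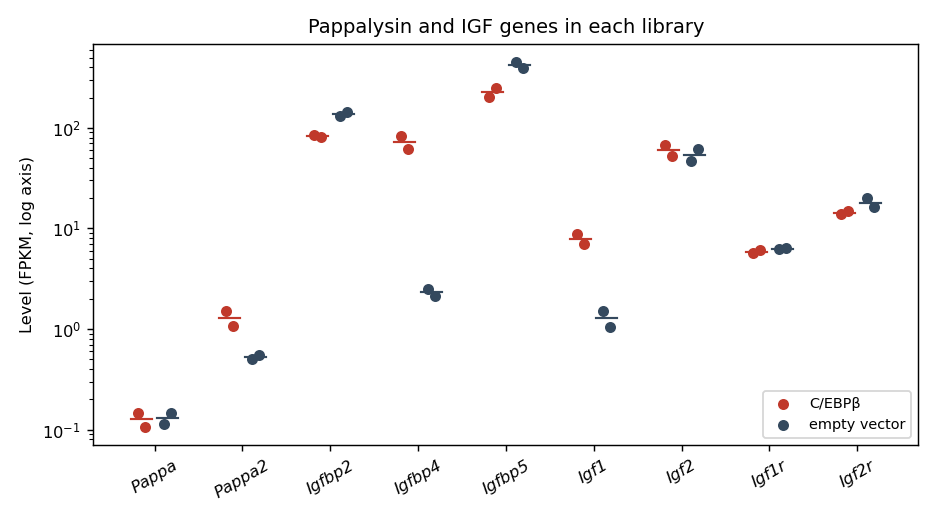
Level of the pappalysin and IGF genes in each library (FPKM, log axis); points are libraries, lines are group means, and C/EBPβ stands left of the empty vector for each gene. Igfbp4, Igf1 and Pappa2 lie higher with C/EBPβ, Igfbp2, Igfbp5 and Igf2r lie lower, and Pappa and Igf2 overlap.

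Genes of store-operated calcium entry, which STC2 is known to restrain, shifted between family members. Stim1, the calcium sensor of the endoplasmic reticulum, had 40.1 and 43.1 CPM in C/EBPβ cells and 76.2 and 68.0 CPM in empty-vector cells (log2 fold change -0.80, SE 0.09, edgeR adjusted p = 0.000305). Orai1, the channel it opens, had 18.0 and 23.7 CPM with C/EBPβ and 35.2 and 33.8 CPM with the empty vector (log2 fold change -0.73, SE 0.13). The related channels Orai2 and Orai3 rose by 0.45 and 0.46 on the log2 scale. Among the channels that release calcium from the store, Itpr3 fell (-0.81, SE 0.08), while Itpr2 (0.85, SE 0.09) and Itpr1 (0.70) rose. In all 4 of 11 genes tested rose and 3 fell, with a median log2 fold change of -0.01, or 36.4% and 27.3% against 22.3% and 20.9% of all genes. Atp2a2, Stim2, Trpc1 and Saraf did not pass, and without C/EBPβ replicate 2 the number that fell was 5.

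Transporters of phosphate and calcium at the cell membrane, the classical field of stanniocalcin, also moved both ways. Slc20a2, a phosphate importer, had 37.5 and 38.3 CPM in C/EBPβ cells and 73.6 and 62.9 CPM in empty-vector cells (log2 fold change -0.85, SE 0.09, edgeR adjusted p = 0.000303). Its relative Slc20a1 did not pass, at a mean of 110.6 ± 3.44 CPM with C/EBPβ and 106 ± 0.757 CPM with the empty vector (SD, n = 2 each). Slc8a1, the sodium-calcium exchanger, rose to 11.7 and 12.5 CPM, against 4.82 and 3.22 CPM (log2 fold change 1.59, SE 0.19). Of the calcium pumps of the plasma membrane, Atp2b4 rose (0.68, SE 0.08) and Atp2b1 fell (-0.62, SE 0.11), and the phosphate exporter Xpr1 fell (-0.25). The other 8 of the 14 genes listed had too few fragments to be tested, at 0 to 24 over all libraries. Among them were Casr, the calcium-sensing receptor, and Slc34a1, a kidney phosphate transporter. Of the 6 tested, 2 rose and 3 fell, or 33.3% and 50% against 22.3% and 20.9% of all genes, and the list's median log2 fold change was -0.09.

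Genes of the hypoxia response were tested because low oxygen is known to induce both stanniocalcins, and 7 of 20 rose and 2 fell, or 35.0% and 10.0% against 22.3% and 20.9% of all genes. Their median log2 fold change was 0.19. Adm, the vasodilator adrenomedullin, rose to 4.23 and 3.12 CPM in C/EBPβ cells, against 1.01 and 1.07 CPM in empty-vector cells (log2 fold change 1.83, SE 0.24, edgeR adjusted p = 0.000679). Mxi1, a MYC antagonist, and Pdk1, which holds back pyruvate oxidation, rose by 0.74 and 0.67 on the log2 scale. Car9, Ankrd37, P4ha2 and Slc2a1 were the other 4 that rose. The members that fell were Egln3, an oxygen sensor (-0.93), and Ldha, lactate dehydrogenase A (-0.44). Vegfa, the endothelial growth factor, had 238 ± 5.27 CPM with C/EBPβ and 232 ± 1.502 CPM with the empty vector (SD, n = 2 each) and did not pass (log2 fold change 0.04). The number that fell was 1 without C/EBPβ replicate 1 or empty-vector replicate 1, 4 without C/EBPβ replicate 2 and 0 without empty-vector replicate 2. It was 4 with the replicate number as a block and 4 without the low-count filter.

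Of the integrated stress and unfolded protein responses, to which Stc2 is known to belong as a target of ATF4, 8 of 22 genes fell and 4 rose, or 36.4% and 18.2% against 20.9% and 22.3% of all genes, and the list's median log2 fold change was -0.09. Chac1, which degrades glutathione, had 21.6 and 25.1 CPM in C/EBPβ cells and 36.1 and 41.2 CPM in empty-vector cells (log2 fold change -0.73, SE 0.11, edgeR adjusted p = 0.00138). Atf3, a stress-induced transcription factor, had 7.93 and 5.09 CPM with C/EBPβ and 13.1 and 13.9 CPM with the empty vector (-1.04, SE 0.20). Eif2ak3, the kinase PERK that starts one branch of the response, rose by 0.52 on the log2 scale, and Ddit3, the C/EBP relative CHOP, by 0.45. Atf4 itself did not pass, at 445 ± 0.788 CPM with C/EBPβ and 464 ± 51.6 CPM with the empty vector (SD, n = 2 each; log2 fold change -0.06). Phgdh and Psat1, enzymes of serine synthesis, Trib3, Ppp1r15a, Slc7a11 and Herpud1 also fell, and Vldlr and Xbp1 also rose. The number that fell was 4 without empty-vector replicate 1 and 3 without empty-vector replicate 2.

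The uncoupling proteins, of which STC1 is known to raise UCP2 in mouse macrophages, were at the edge of the test. Ucp2 had 99.2 and 127 CPM in C/EBPβ cells and 151 and 140.1 CPM in empty-vector cells (log2 fold change -0.36, SE 0.12, edgeR adjusted p = 0.0488). Ucp3, the form of muscle, had 0.345 and 0.438 CPM with C/EBPβ and 0.696 and 0.732 CPM with the empty vector (-0.89, SE 0.31, edgeR adjusted p = 0.0489). The edgeR adjusted p of Ucp2 was 0.0605 with library sizes alone, 0.0565 with a filter at 1 CPM, 0.201 without C/EBPβ replicate 1, and 0.198 and 0.123 without empty-vector replicates 1 and 2. That of Ucp3 was 0.0613 with library sizes alone, 0.264 without C/EBPβ replicate 1, 0.0584 without the low-count filter, and 0.135 and 0.202 without empty-vector replicates 1 and 2, and in DESeq2 its adjusted p was 0.285. Cat, catalase, rose by 0.32 on the log2 scale (edgeR adjusted p = 0.00932, and 0.0506 without empty-vector replicate 2). Hmox1, a heme oxygenase whose protein binds STC2 in human cells, did not pass (0.07). In all 1 of 6 rose and 2 fell, or 16.7% and 33.3% against 22.3% and 20.9% of all genes, and the list's median log2 fold change was -0.07.

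**Figure D5:**
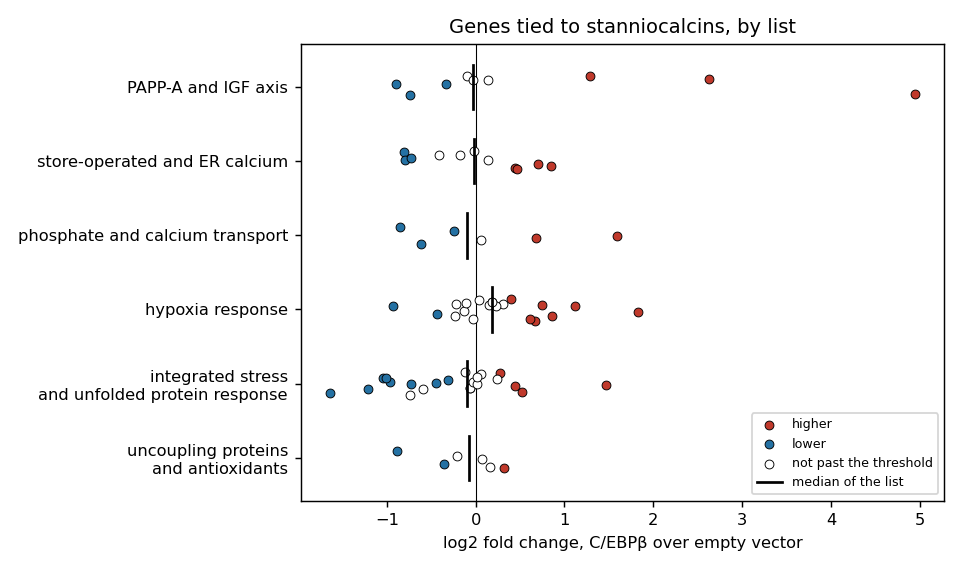
Log2 fold change of C/EBPβ over empty vector for each tested gene of 6 lists tied to stanniocalcins, with red for higher, blue for lower and white for genes that did not pass an edgeR adjusted p of 0.05; black bars are list medians. The medians lie between -0.09 and 0.19, and every list holds genes on both sides.

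Around the 2 genes there was little other expression to compare. Within 250 kb of Stc1 the count files list 11 other genes, of which 7 had no fragment. The 1 neighbour tested was Slc25a37, the iron importer mitoferrin 1, at a gap of 200.4 kb. It had 351 and 307 CPM in C/EBPβ cells and 208 and 176 CPM in empty-vector cells, a rise of 0.78 on the log2 scale (SE 0.12, edgeR adjusted p = 0.00133), against 9.55 for Stc1. The 3 genes listed within 250 kb of Stc2 had no fragment in any library.

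Of the 2 genes, Stc2 was matched in RefSeq's table of promoters (GRCm38.p6). Its upstream sequence is shown because the factor overexpressed here binds DNA, and it was searched for the letters of known sites. The 237 bases before the annotated exon, chr11:31370075-31370311 on the minus strand, read as follows.
Stc2 promoter: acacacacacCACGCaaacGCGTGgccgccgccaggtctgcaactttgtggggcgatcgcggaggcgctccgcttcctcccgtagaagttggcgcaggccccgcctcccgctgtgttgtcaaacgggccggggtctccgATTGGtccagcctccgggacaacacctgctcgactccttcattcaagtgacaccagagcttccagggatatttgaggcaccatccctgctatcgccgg
Capitals mark every match found on either strand. GCGTG, a form of the core of hypoxia response elements, occurred 2 times and is present in 26.8% of 32851 promoter windows of the same length. CCAAT occurred 1 time, on the opposite strand, as in 32.8% of windows. There was no match to TTGCNNAA (9.23% of windows), which is the C/EBP palindrome TTGCGCAA with the GC after its TTGC left free. Nor was there a match to TGATGNAA, the composite site of C/EBP and ATF factors (3.32%), or to ACGTG, the other hypoxia core (15.7%). The matches overlapped no other motif and are letters in this window only.

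The genes whose profile over the 4 libraries was most like that of Stc2 were Rbm38, an RNA-binding protein, Kcnk13, a potassium channel, Fabp3, the fatty acid binding protein of heart and muscle, Tspan7 and Tceal7. They were ranked by the Euclidean distance of centred log2 CPM among 12656 genes that averaged 1 CPM or more, and their distances were 0.05 to 0.12. Fabp3 had 2.51 and 3.64 CPM in C/EBPβ cells and 14.1 and 16.6 CPM in empty-vector cells. Like Stc2 all 5 were higher in replicate 2 of either group, which largely follows from their choice by profile. Rbm38 lost its call without empty-vector replicate 1 or 2 (edgeR adjusted p = 0.0556 and 0.0576). With a pseudocount of 0.1 CPM in place of 0.01, 4 of these 5 genes were named again.

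The profiles nearest to that of Stc1 lay further off, at distances of 0.39 to 1.22. They were Vit, a matrix protein, Kng1, a kininogen with a close copy in Kng2, Pde1a, a phosphodiesterase, Mark1, a kinase, and Slc36a2, an amino acid transporter. Pde1a had 1229 and 739 fragments with C/EBPβ and 2 and 2 with the empty vector. Mark1 had 585 and 426 fragments with C/EBPβ and 1 and 1 with the empty vector, and Vit, Kng1 and Slc36a2 had none in empty-vector cells. At such counts the pseudocount decides the order: with 0.1 CPM only Pde1a was named again, beside Lama1, Sfrp1, Angptl7 and Gda. Vit, Kng1, Pde1a, Mark1 and Slc36a2 passed the filter on low counts through the C/EBPβ libraries alone, so no other direction could be called. Their rise beside Stc1 also follows largely from their choice by profile.

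The authors' deposited table gave a log2 fold change of 9.19 (SE 0.25) for Stc1 and -2.31 (SE 0.19) for Stc2, and 3.41 for Cebpb. The sources used here do not say which libraries entered it. The mean signal in the authors' deposited table was 1.10 times that of these 4 libraries for Stc1, 1.08 times for Stc2 and 1.06 times for Cebpb.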

How the data were processed

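Raw counts of fragments per gene, deposited by the authors, were used for all 4 libraries. Per the submitters' processing notes, the aligner was HISAT2 2.0.4 on GRCm38 and the counter featureCounts 1.4.6. The file headers name version 1.5.1 of the counter, paired fragments, the reverse strand and GENCODE M12. A further table holds, per the file headers, per gene the authors' mean signal, log2 fold change and its error, test score and p-value, raw and adjusted. The notes name DESeq2 with no version.

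Symbols matched 49326 of 49585 identifiers. Counts passing edgeR's filterByExpr (minimum count 10, minimum total 15) were scaled by TMM and compared with edgeR 4.0.16 in R 4.3.3 by its quasi-likelihood test (glmQLFit, robust, then glmQLFTest), 2-sided and adjusted by Benjamini-Hochberg over all 15886 genes. The procedure was tested on simulated data. SE is the log2 fold change over the root of the F statistic; FPKM divides CPM by the summed exon length in the count files. With 2 libraries against 2, no exact 2-sided permutation test can go below 0.333, and none was run. Replicate libraries differed beyond sampling noise (chi-square per degree of freedom 28.5 for C/EBPβ and 20.0 for the empty vector).

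The members and lists were chosen with earlier results of these data known. The text names Cebpb, all pappalysin and IGF genes tested, the 3 smallest p in each other list, 9 further genes fixed by name (among them Atf4, Ddit3, Vegfa, Stim1 and Orai1), tested genes within 250 kb, the 5 most similar profiles for each member and the 2 most abundant markers of each other cell type. Other genes named complete small counts and were chosen after their values were seen. Deviations of libraries with equal replicate numbers correlated at 0.21, but 2 pairs are too few to show pairing and the labels give none, so the block is an alternative. Other alternatives were DESeq2 1.42.0, other scalings and filters, and leaving out each library.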

Additional observations from a re-analysis of the deposited data

How the results depend on the processing

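The log2 fold changes of Stc1 and Stc2 and the difference between them kept their direction under all 10 alternatives. Both genes were chosen for those directions in the counts that every alternative reuses, so a kept direction is no independent check. The log2 fold changes and their difference also moved by less than the spread between replicates. When 1 of 2 libraries of a group is left out, that spread all but bounds the move. For those alternatives the comparison with the spread is therefore no check. Leaving out each library in turn gave 9.40 to 9.72 for Stc1, -2.64 to -1.98 for Stc2 and -12.2 to -11.4 for their difference, and with the replicate number as a block they were 9.54, -2.30 and -11.8. The block raised the number of genes past the threshold to 7677, and the numbers of fewer than 3 pairs do not show pairing; it moved the hypoxia genes that fell to 4 against 2 and those that rose to 8 against 7, the stress response genes to 10 against 8 that fell and 5 against 4 that rose, and the uncoupling genes that fell to 3 against 2. It changed, of the 50 genes named by rule, the call of Dcn (adjusted p = 0.0103 in edgeR). Without each library in turn 4005 to 7414 genes passed, 2169 to 3712 higher and 1836 to 3702 lower. The ranges of genes that fell were 3 to 5 for store-operated calcium, 0 to 4 for hypoxia, 3 to 10 for the stress responses and 0 to 3 for uncoupling proteins, of which 0 to 1 rose. Without the low-count filter 5 store-operated calcium genes and 4 hypoxia genes fell. Uncoupling genes past the threshold as lower numbered 0 with library sizes alone, 0 with a filter at 1 CPM and 1 in DESeq2. Of 497 values of the 50 genes, 469 kept direction and side of the threshold, 16 lost the call, 4 gained it and 8 changed sign. Those that changed sign were Pappa (0.0321 with library sizes alone, -0.28 to 0.16 without single libraries), Igf2 (-0.0519 to 0.34), Atf4 (-0.17 to 0.0580), Vegfa (-0.00287 to 0.0627) and Vwf (-0.0851 to 0.47), none of which passed with all libraries. The causes were not tested. Depth limits Stc1 in empty-vector cells, which rests on 17 and 24 fragments. The length of the coding transcript in GENCODE M21, chosen after seeing the data, includes bases of Stc1 outside the counted exons. It moved the log2 ratio of Stc1 to Stc2 to 6.65 and 5.85 with C/EBPβ and to -5.69 and -5.55 with the empty vector.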
